A study of Saccharomyces cerevisiae with 17 samples.

Results

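The COS genes are a family of closely related Saccharomyces cerevisiae genes that lie near the chromosome ends. The 10 genes considered were COS1 to COS8, COS10 and COS12, chosen by symbol. Of these, 7 had a probe set under their own name, out of 5449 S. cerevisiae genes measured, namely COS2 (YBR302C), COS4 (YFL062W), COS6 (YGR295C), COS7 (YDL248W), COS8 (YHL048W), COS10 (YNR075W) and COS12 (YGL263W). COS1 (YNL336W), COS3 (YML132W) and COS5 (YJR161C) have no probe set of their own symbol in the annotation used and were not analysed here. The family was chosen after results of one comparison were known, that of BY4742::FLO8 with the wild type in flight. The members' values in that comparison, and in the difference of flight response between those strains, are therefore given as descriptions without a test. Comparisons that share their flight arrays with it are not independent of that choice.

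Cos proteins span the endosomal membrane and carry many lysines that are modified with ubiquitin. They help to gather other membrane proteins into the vesicles that bud into the endosome, so that permeases and receptors are carried to the vacuole and degraded, even where the cargo lacks ubiquitin of its own. Their genes sit near the telomeres, where the NAD-dependent deacetylase Sir2 can silence genes. COS expression has been tied to the supply of NAD and its precursor nicotinic acid.

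RNA was measured on 17 Affymetrix Yeast Genome 2.0 arrays, which read each gene with a set of short probes, and the values are log2 probe set levels. The strains were BY4742::FLO8, BY4742 FLO1 overexpression and the BY4742 wild type (WT), a haploid laboratory strain of mating type alpha. Each was grown for 72 h at 23 °C in 2 x YPD injected into cells held in saline, in microgravity on the International Space Station (5 days after launch) or at 1 g on the ground in an incubator set to the logged flight temperatures. There were 3 arrays in each of FLO8 microgravity, FLO8 ground, FLO1 ground, WT microgravity and WT ground, and 2 in FLO1 microgravity. The labels do not say how FLO1 was overexpressed, nor whether arrays of a group come from separate cultures, and the p-values therefore cover array-to-array spread alone, which may be technical. Ground growth followed the flight, and the time of culture and the condition cannot be told apart. The cultures were measured in bulk, and fewer cells expressing a gene and less RNA per cell cannot be told apart.

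FLO1, a cell wall flocculin gene, averaged 12.70 ± 0.19 log2 in FLO1 ground and 8.47 ± 0.27 in WT ground (SD, n = 3 each). FLO8, a gene for a transcription factor, averaged 7.76 ± 0.16 log2 in FLO8 ground and 9.30 ± 0.19 in WT ground, and 8.05 ± 0.23 in FLO8 microgravity and 9.16 ± 0.25 in WT microgravity (SD, n = 3 each). The FLO8 probe set thus read lower in the strain labelled BY4742::FLO8, and the labels do not say what was done to the gene. That strain is called the FLO8 strain by its label only. Array medians over all genes ran from 9.83 to 9.93 log2. An earlier analysis of these data found 4 arrays that stand apart (replicates 2 and 3 of FLO8 microgravity, replicate 1 of FLO1 microgravity and replicate 3 of WT microgravity). All 4 are flight arrays, and the criterion is not given here. The root mean square distance from the group mean reached 0.58 in FLO8 microgravity and at most 0.17 in FLO8 ground. It was 0.35 for both FLO1 microgravity arrays, as it must be equal with 2 arrays, and cannot single out replicate 1. The difference between 3 prime and 5 prime control probe sets, a measure of RNA quality, was 1.18 ± 0.02 in WT microgravity and 1.09 ± 0.05 in WT ground (SD, n = 3 each). It was 1.34 ± 0.11 in FLO1 microgravity (n = 2) and 1.08 ± 0.07 in FLO1 ground (n = 3), and 1.19 ± 0.06 in FLO8 microgravity and 1.14 ± 0.06 in FLO8 ground (n = 3 each). All 7 members lay above 4.56 log2, the 95th percentile of Schizosaccharomyces pombe probe sets, taken as background. The number of arrays limits the precision.

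Across all arrays COS12 varied most among the members, from 6.75 log2 on WT microgravity replicate 3 to 9.32 on FLO8 ground replicate 3, a span of 2.57. COS10 ran from 6.46 to 8.02 and COS7 from 9.84 to 11.11. COS2 (13.43 to 14.28), COS4 (12.34 to 13.21), COS6 (10.11 to 11.10) and COS8 (11.50 to 12.10) each stayed within 1.00 log2. The probe sets of COS2, COS4 and COS7 are of a kind that matches transcripts of several related genes, so their signal can include other members, COS1, COS3 and COS5 among them. The remaining probe sets can cross-hybridise too.

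COS12 separated flight from ground in WT and in the FLO1 strain. It read 7.42, 6.81 and 6.75 log2 on the WT microgravity arrays, against 8.61, 8.22 and 7.70 on the WT ground arrays. Every flight array lay below every ground array, as for 5.58% of all genes. The group means were 6.99 ± 0.37 in WT microgravity and 8.18 ± 0.45 in WT ground (SD, n = 3 each), a log2 difference of −1.18 (SE 0.30), which is 2.27-fold lower. By limma its unadjusted p was 0.00130 and its adjusted p over all genes 0.140, so it did not pass. By size it ranked 53 among 5449 genes.

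In the FLO1 strain COS12 read 8.11 and 7.46 log2 on the microgravity arrays, against 8.99, 9.24 and 9.08 on the ground arrays. These groups did not overlap either, where 18.6% of all genes lay lower without overlap. The means were 7.79 ± 0.46 in FLO1 microgravity (n = 2) and 9.10 ± 0.13 in FLO1 ground (n = 3), a difference of −1.32 (SE 0.33; 2.49-fold lower), with an adjusted p of 0.169 by limma. It ranked 60 by size.

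In the strain labelled FLO8, COS12 did not separate the conditions. It read 8.79, 8.13 and 9.06 log2 on the microgravity arrays, against 8.56, 8.84 and 9.32 on the ground arrays, and the groups overlapped. The difference was −0.25 (SE 0.30, limma adjusted p = 0.885). The flight difference of the FLO8 strain exceeded that of the FLO1 strain by 1.07 (SE 0.45, unadjusted p = 0.0303, adjusted p = 0.998 over all genes) and so did not pass. It exceeded that of WT by 0.94 (SE 0.42), and that of the FLO1 strain differed from that of WT by −0.13 (SE 0.45, limma adjusted p = 0.993).

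**Figure D1:**
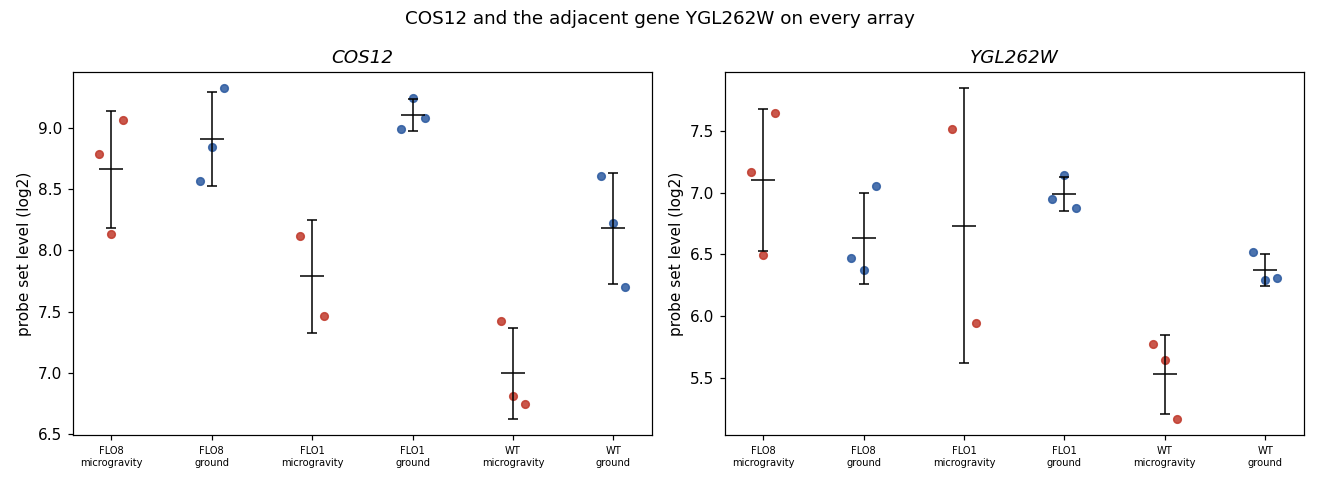
Probe set level (log2, y axis) of COS12 (left) and of YGL262W, the gene next to it (right), by group (x axis). Points are arrays (red microgravity, blue ground), and bars are the mean and SD of a group. COS12 sits at 6.99 in WT microgravity and 8.18 in WT ground, at 7.79 in FLO1 microgravity and 9.10 in FLO1 ground, and at 8.66 in FLO8 microgravity and 8.91 in FLO8 ground.

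The order of the COS12 group means, from high to low, was FLO1 ground (9.10), FLO8 ground (8.91), FLO8 microgravity (8.66), WT ground (8.18), FLO1 microgravity (7.79) and WT microgravity (6.99). Arrays of neighbouring groups in this order overlapped, except for the last step, where both FLO1 microgravity arrays lay above all 3 WT microgravity arrays. Ground cultures of the engineered strains thus read above WT ground. The FLO1 strain exceeded WT there by 0.93 (SE 0.30; 1.90-fold) with no overlap of arrays, where 11.1% of all genes were higher without overlap. The unadjusted p was 0.00733 and the adjusted p 1.00 by limma. By size COS12 ranked 23 in that comparison. The FLO8 strain exceeded WT on the ground by 0.73 (SE 0.30, unadjusted p = 0.0272, adjusted p = 0.999) with overlapping arrays, and differed from the FLO1 strain on the ground by −0.20 (SE 0.30, adjusted p = 1.00).

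In flight, COS12 was higher in the FLO1 strain than in WT by 0.79 (SE 0.33, limma adjusted p = 0.578) and higher in the FLO8 strain than in the FLO1 strain by 0.87 (SE 0.33, limma adjusted p = 0.502). In both cases the arrays did not overlap, where 6.90% and 4.44% of all genes were higher without overlap. Against WT, the 3 FLO8 microgravity arrays were higher by 1.67 (SE 0.30), without overlap, as for 3.93% of all genes, and COS12 ranked 6 by size. That comparison led to the choice of the family, so its values are a description and nothing is read from them. These 3 flight comparisons share arrays with one another. The difference between the FLO1 strain and WT was 0.47 without FLO1 microgravity replicate 1 and 0.34 without the 4 arrays that stand apart. That between the FLO8 and FLO1 strains was 0.55 without FLO1 microgravity replicate 2 and 1.32 without those 4 arrays.

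The COS12 calls depended on the weight given to the arrays. For WT microgravity against ground its limma adjusted p was 0.00252 with array weights (−1.30) and 0.0444 without the 4 arrays that stand apart (−1.06), which passed. Over 9 alternatives that p ran from 0.00252 to 0.417, and leaving out single arrays gave 0.0872 to 0.509, with differences from −1.42 to −0.97. With the 3 prime minus 5 prime difference as a covariate the difference was −1.22 in WT (adjusted p = 0.417) and −1.43 in the FLO1 strain (adjusted p = 1.00, in a range from 0.0813 to 1.00 over 9 alternatives). The part of RNA quality in these differences was not tested. Leaving out the 4 arrays, all from flight, also changes the estimate of spread that all groups share. For the FLO1 strain against WT on the ground the adjusted p was 0.0319 with array weights (difference 0.71), in a range from 0.0319 to 1.00 over 9 alternatives. With those weights 596 of 5449 genes were called in the first comparison and 501 in the second, in place of 9 and 2. Without the 4 arrays 461 genes were called in the first.

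The other 6 measured members showed small differences between flight and ground. In WT, COS2, COS4, COS6, COS7, COS8 and COS10 differed by −0.34 to 0.12 log2, with 3 above and 3 below 0, where 41.1% of all genes lay below 0, and all overlapped between conditions. In the FLO1 strain the same 6 lay above ground, by 0.08 for COS6 up to 0.36 for COS10, where 48.7% of all genes lay below 0. The flight arrays of 4 of the 7 members (COS2, COS4, COS7 and COS8) lay wholly above the ground arrays, where 22.8% of all genes did so with 2 against 3 arrays. In the FLO8 strain 5 of these 6 were above 0, where 48.2% of all genes lay below 0, the largest being COS4 at 0.39 (SE 0.21), which was 0.24 without FLO8 ground replicate 1 and 0.60 without FLO8 ground replicate 3. COS4 read 13.00, 13.21 and 12.90 on the FLO8 microgravity arrays, against 12.36, 12.52 and 13.08 on the FLO8 ground arrays, and overlapped. COS2 read 14.09, 14.28 and 14.09 in FLO8 microgravity, against 13.60, 13.83 and 14.07 in FLO8 ground, which did not overlap, and differed by 0.32 (SE 0.15, limma adjusted p = 0.752). For all genes, 6.55% lay higher without overlap in that comparison.

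By limma, 0 of the 7 members passed in any of the 10 tested comparisons. For microgravity against ground in WT, 0.165% of all genes passed, and 1 member (COS12) had an unadjusted p under 0.05, as did 10.0% of all genes. In the FLO1 strain 0.0367% passed, and 1 member (COS12) had such a p, against 13.2% of all genes. In the FLO8 strain 0.00% passed, and no member had such a p, against 6.64% of all genes. The median difference of the 7 members was −0.14 in WT, 0.21 in the FLO1 strain and 0.14 in the FLO8 strain, beside medians over all genes of 0.06, 0.01 and 0.01. The shares passing were 0.0367% for each engineered strain against WT on the ground, 0.0734% for FLO8 against FLO1 on the ground, 0.0367% for FLO1 against WT in flight and 0.0551% for FLO8 against FLO1 in flight. For the flight response of the FLO1 strain against that of WT, and for that of the FLO8 strain against that of the FLO1 strain, 0.00% passed. In these last comparisons 0 members and 1 member (COS12) had an unadjusted p under 0.05, against 3.52% and 3.38% of all genes.

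**Figure D2:**
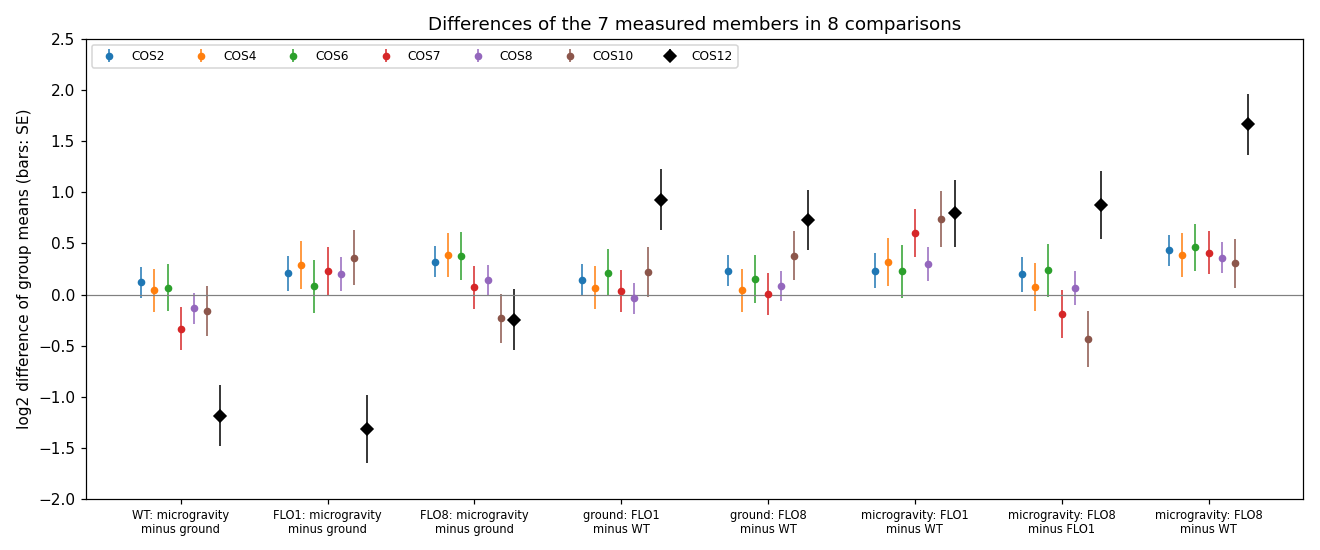
Log2 difference of group means (y axis, bars are SE) of the 7 measured members in 8 comparisons (x axis). COS12 (black diamonds) lies at −1.18 and −1.32 for microgravity against ground in WT and the FLO1 strain and at −0.25 in the FLO8 strain, while the other members stay between −0.34 and 0.39 there.

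On the ground the members other than COS12 lay close to WT. In the FLO1 strain they differed from it by −0.04 (COS8) to 0.22 (COS10), and in the FLO8 strain by 0.00 (COS7) to 0.38 (COS10). COS10 read 7.47, 7.46 and 7.05 in FLO8 ground, against 7.11, 7.20 and 6.53 in WT ground, and overlapped (0.38, SE 0.24, limma adjusted p = 0.999). The median over the 7 members was 0.15 in each comparison, beside 0.02 over all genes. Without single arrays it ran from −0.02 (without FLO8 ground replicate 3) to 0.31 (without FLO8 ground replicate 1) for the FLO8 strain, and from 0.06 (without WT ground replicate 2) to 0.19 (without WT ground replicate 1) for the FLO1 strain. At an unadjusted p under 0.05 there was 1 member, COS12, in each, against 1.38% and 3.56% of all genes. Between the FLO8 and FLO1 strains on the ground the median was −0.03, and no member had an unadjusted p under 0.05, against 0.918% of all genes.

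In flight all 7 members lay above WT in the FLO1 strain, with a median of 0.32, where 53.0% of all genes lay below 0. Besides COS12, COS7 and COS10 had an unadjusted p under 0.05, as did 7.76% of all genes. COS10 read 8.02 and 7.04 in FLO1 microgravity, against 7.03, 6.46 and 6.87 in WT microgravity, and the groups did not overlap. It differed by 0.74 (SE 0.27, limma adjusted p = 0.494). This difference leaned on FLO1 microgravity replicate 1: it was 0.25 without that array, and 1.23 without replicate 2, where it passed (adjusted p = 0.0180, in a range from 0.0180 to 1.00 over single arrays left out), with the spread of the 1 FLO1 flight array left taken from the other groups. In that setting 401 of all genes were called, in place of 2. COS7 read 11.00 and 10.83 in FLO1 microgravity, against 10.46, 10.63 and 9.84 in WT microgravity. It differed by 0.60 (SE 0.23, limma adjusted p = 0.556), and by 0.37 without WT microgravity replicate 3, its lowest array. COS7 and COS8 (0.30, SE 0.17, limma adjusted p = 0.702) did not overlap between these groups either. Arrays of 4 of the 7 members (COS7, COS8, COS10 and COS12) thus did not overlap, where 6.90% of all genes were higher without overlap. This comparison shares its WT flight arrays with the one behind the choice of the family and is not independent of it.

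In the strain labelled FLO8 all 7 members also lay above WT in flight, where 52.6% of all genes lay below 0. COS12 was the largest, and the other 6 differed by 0.31 (COS10) to 0.46 (COS6). COS6 read 10.94, 11.06 and 11.00 in FLO8 microgravity, against 10.25, 10.89 and 10.47 in WT microgravity. COS2 read 14.09, 14.28 and 14.09 in FLO8 microgravity, against 13.55, 13.92 and 13.70 in WT microgravity. COS2, COS6 and COS12 did not overlap between these groups, and the other 4 did. The share of all genes higher without overlap was 3.93%, from which nothing is read here, since this comparison led to the choice of the family. The median of the 7 members was 0.41 in the FLO8 strain against WT and 0.07 in the FLO8 strain against the FLO1 strain, where COS12 alone had an unadjusted p under 0.05, against 8.35% of all genes.

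**Figure D3:**
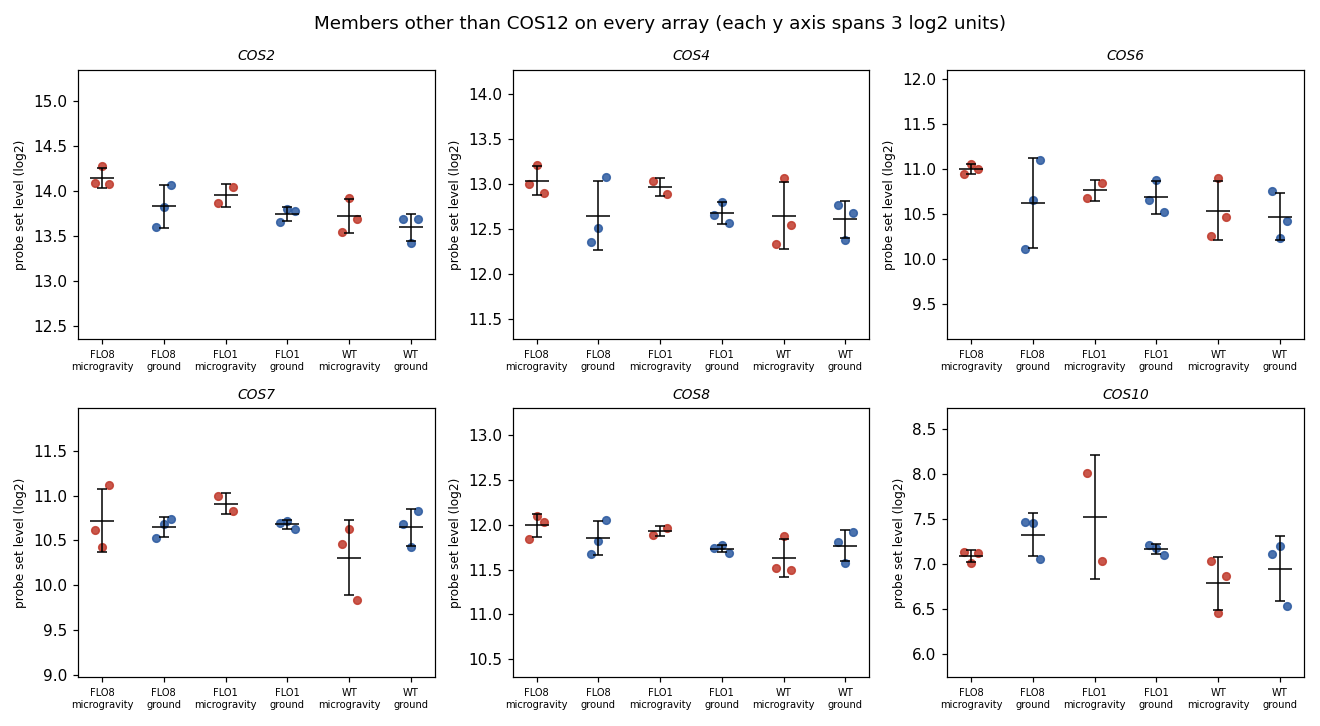
Probe set level (log2, y axis) of the 6 measured members other than COS12, by group (x axis). Points are arrays (red microgravity, blue ground), bars are the mean and SD of a group, and every y axis spans 3 log2 units. COS2 is highest in FLO8 microgravity (14.15), COS10 spreads most in FLO1 microgravity (SD 0.69), and most neighbouring groups overlap.

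The group order of the other members differed from that of COS12. COS2 (14.15), COS4 (13.04), COS6 (11.00) and COS8 (11.99) had their highest mean in FLO8 microgravity, followed by FLO1 microgravity. COS7 (10.91) and COS10 (7.53) were highest in FLO1 microgravity. WT ground was the lowest group for COS2, COS4 and COS6, and WT microgravity the lowest for COS7, COS8, COS10 and COS12. FLO8 and WT microgravity are the groups of the comparison behind the choice of the family. Their places in these orders, that of COS12 included, are not independent of it. Of the 30 steps between neighbouring groups of these 6 members, arrays did not overlap at 3. These were COS2 and COS6 between FLO8 and FLO1 microgravity, where 4.44% of all genes were higher without overlap, and COS4 between FLO1 microgravity and FLO1 ground, where 22.8% were.

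The members formed no single pattern over the arrays. Over the 17 arrays, levels of COS2, COS4, COS6 and COS8 correlated with each other at Pearson r from 0.80 (COS6 with COS8) to 0.90 (COS4 with COS6). COS7 correlated with COS8 at 0.64 and with COS2 at 0.32. COS12 correlated with the other members at 0.06 (COS4) to 0.47 (COS7), and with COS10 at 0.45. COS10 correlated with COS2, COS4, COS6 and COS8 at −0.12 to −0.06. Taken as deviations from the group means, COS2 and COS8 correlated at 0.88, COS12 with COS10 at 0.47 and with COS7 at 0.43, and COS10 with COS2 at −0.71. The arrays share their culture conditions and normalization, and the probe sets of close relatives can read the same transcripts. The part of shared probes in these correlations was not tested.

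**Figure D4:**
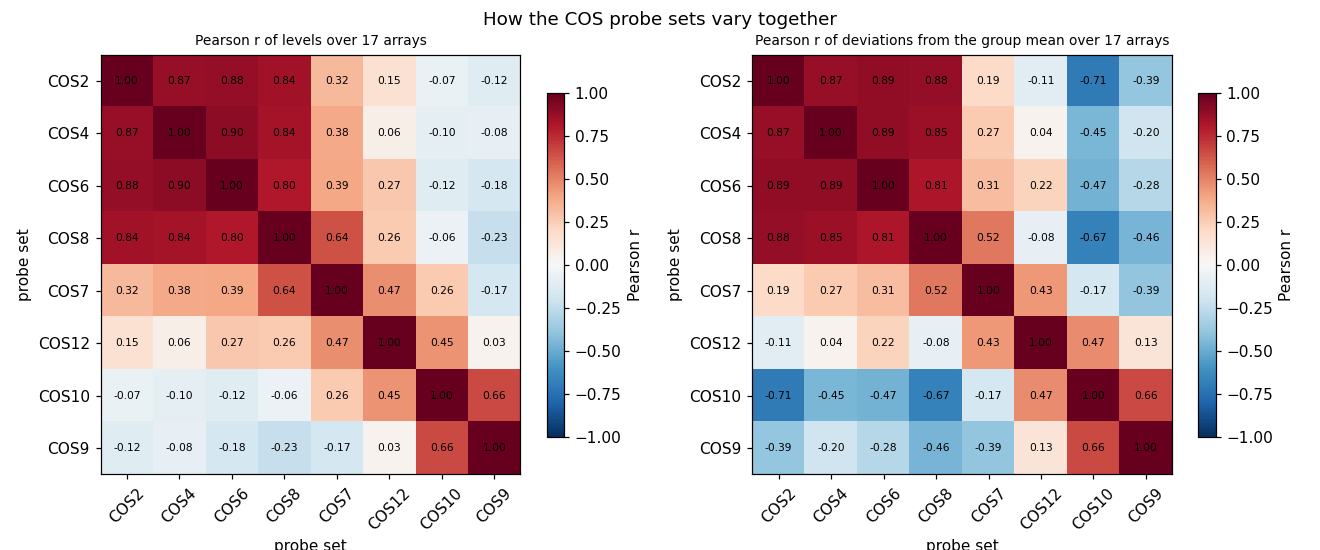
Pearson r between COS probe sets over 17 arrays, for levels (left) and for deviations from the group mean (right). COS2, COS4, COS6 and COS8 form a block at 0.80 to 0.90 for levels, while COS12 correlates at 0.47 with COS7 and at 0.45 with COS10. COS9 is shown for comparison.

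COS9 (YKL219W), a measured family gene outside the chosen 10, correlated with COS10 at 0.66 and with COS12 at 0.03. Its group means lay between 8.18 in WT ground and 8.60 in FLO1 microgravity. Its differences ran from −0.49 to 0.29 in the 10 tested comparisons, and none had an unadjusted p under 0.05.

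The genes whose levels were most like COS12 over the 17 arrays, among 5381 genes above background, were CSM2 (r = 0.94), which acts in recombination repair, URA5 (0.90), an enzyme of pyrimidine synthesis, SHO1 (0.89), an osmosensor, YNL058C (0.84), and MF(ALPHA)2 (0.84), which encodes an alpha-factor mating pheromone. Without the 4 arrays that stand apart their r ran from 0.89 to 0.95. As deviations from the group means it was lower, 0.59 to 0.66, and these genes ranked 55 (CSM2) to 126 (YNL058C). How far the likeness rests on differences between groups was not tested. CSM2 read 7.34 ± 0.15 in WT microgravity and 7.82 ± 0.18 in WT ground (SD, n = 3 each). MF(ALPHA)2 read 10.63 ± 0.22 in FLO1 microgravity (n = 2) and 11.76 ± 0.03 in FLO1 ground (n = 3). Most like the mean of the other 6 members were DRS2 (0.86), a phospholipid flippase of the late Golgi, EGH1 (0.86), a steryl glucosidase, PET8 (0.85), a mitochondrial carrier, YEA4 (0.84), a nucleotide sugar transporter, and VPS53 (0.83), a subunit of a Golgi tethering complex. Without the 4 arrays that stand apart their r was 0.77 to 0.86, and they ranked 23 (YEA4) to 98 (PET8) among the 5381 genes. Their place at the top was thus not kept, while r itself moved less, to 0.84 for DRS2 and 0.86 for YEA4. That of PET8 fell most, to 0.77. As deviations from the group means they ranked 7 (DRS2) to 87 (PET8).

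Position on the chromosome was taken from a RefSeq gene table, from which only the order of genes is used because the files name no build. COS12 is the outermost annotated gene of the left end of chromosome VII, COS7 of the left end of IV and COS2 of the right end of II. COS6 has 1 annotated gene between it and the right end of VII, COS8 has 3 before the left end of VIII, COS10 has 3 before the right end of XIV and COS4 has 5 before the left end of VI. Within 3 positions of the 7 members, 18 neighbours were measured. Those named below follow no rule set beforehand.

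YGL262W, an uncharacterised gene next to COS12, varied with it (r = 0.82 for levels and 0.79 for deviations from the group means, 17 arrays). It read 5.77, 5.64 and 5.17 in WT microgravity, against 6.52, 6.29 and 6.31 in WT ground, with no overlap (−0.84, SE 0.35, limma adjusted p = 0.432). It read 7.52 and 5.95 in FLO1 microgravity, against 6.95, 7.14 and 6.88 in FLO1 ground, so its flight arrays lay on either side of the ground arrays. In the FLO8 strain it averaged 7.10 ± 0.58 in microgravity and 6.63 ± 0.37 on the ground (SD, n = 3 each), a difference of 0.47 (SE 0.35, limma adjusted p = 0.844), where that of COS12 was −0.25. In flight it was higher in the FLO8 strain than in WT by 1.57 (SE 0.35), given without a test, and higher in the FLO1 strain than in WT by 1.21 (SE 0.39, limma adjusted p = 0.471). PAU24, a seripauperin gene next to COS2, differed by 3.03 (SE 0.63, limma adjusted p = 0.166) between FLO1 microgravity and FLO1 ground, while COS2 differed by 0.21 (SE 0.17). MPH2, a maltose permease next to COS7, differed by 0.16 in WT, −0.35 in the FLO1 strain and −0.07 in the FLO8 strain between microgravity and ground. In the FLO8 strain YFL064C, next to COS4, differed by −0.59 (SE 0.21, limma adjusted p = 0.725). YFL065C, the gene beyond it, differed by −0.66 (SE 0.26, limma adjusted p = 0.732). On the other side of COS4, DDI3 differed by 0.07, SNO3 by −0.36 and SNZ3 by −0.27, while COS4 differed by 0.39 (SE 0.21).

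Other genes of the chromosome ends gave a background for the family. The 92 other measured genes among the 5 outermost of each end had a median difference between microgravity and ground of −0.01 in WT, 0.03 in the FLO1 strain and −0.17 in the FLO8 strain, where 65 of 92 lay below 0. These 92 genes include FLO1, the overexpressed gene, and COS9, a family gene that was not among the chosen members. They also include neighbours of the members, among them YGL262W and PAU24. In flight their median was 0.17 in the FLO1 strain against WT and −0.03 in the FLO8 strain against WT, beside 0.32 and 0.41 for the COS members. The difference between these lists was not tested. The FLO8 comparison led to the choice of the family, and the FLO1 comparison shares its WT flight arrays. Nothing is therefore read from these flight medians.

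Genes linked to the family through cargo sorting, silencing, NAD supply or kinship did not pass either. By limma, 0 members of 5 gene lists passed in any of the 12 comparisons. Of 21 genes of the ESCRT machinery, which sorts cargo into the vesicles of the endosome, 1 in WT, 7 in the FLO1 strain and 2 in the FLO8 strain had an unadjusted p under 0.05 for microgravity against ground, beside 10.0%, 13.2% and 6.64% of all genes. The medians were 0.02, 0.05 and 0.11. In the FLO1 strain these 7 included VPS24, a subunit of the complex that cuts vesicles free (0.61, SE 0.17, limma adjusted p = 0.179), and IST1, a regulator of that complex (−0.52, SE 0.17, limma adjusted p = 0.235), both named after their values were seen.

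Of 20 permeases and receptors of the plasma membrane, among them known cargo of the vacuole, 2, 4 and 1 had such a p in WT, the FLO1 strain and the FLO8 strain (10.0%, 13.2% and 6.64% of all genes), with medians of 0.11, −0.17 and 0.03. STE3, the receptor for a-factor, differed by −0.81 in the FLO1 strain (SE 0.32, limma adjusted p = 0.289) and by 0.55 in the FLO8 strain (SE 0.28, limma adjusted p = 0.752). In the FLO8 strain STE3 was not the gene counted (limma unadjusted p = 0.0726). The gene counted there was GAP1 (1.07, SE 0.49, limma adjusted p = 0.749). In the FLO1 strain STE2 had the lowest p of the list (−0.44, SE 0.17, limma adjusted p = 0.284). Of 24 sirtuin and silencing genes 2, 2 and 0 had such a p, beside the same shares of all genes, with medians of 0.12, 0.03 and 0.05. SIR4, a scaffold of telomeric silencing, differed by 0.76 in WT (SE 0.17, limma adjusted p = 0.0911). In the FLO1 strain the 2 genes with such a p went opposite ways. HST3, a sirtuin, differed by −0.95 (SE 0.34, limma adjusted p = 0.254), and SIR2, the deacetylase partner of SIR4, by 0.54 (SE 0.21, limma adjusted p = 0.284). STE3, GAP1, STE2, SIR4, HST3 and SIR2 were likewise named after their values were seen.

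Of 16 genes of NAD synthesis and salvage 1, 1 and 0 had such a p, beside 10.0%, 13.2% and 6.64% of all genes, with medians of −0.03, −0.18 and 0.02. The 5 measured genes of the DUP240 family, relatives of the COS genes, gave 1, 1 and 0 beside the same shares, with medians of 0.07, −0.37 and 0.22 in WT, the FLO1 strain and the FLO8 strain.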

How the data were processed

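The authors deposited log2 probe set levels for 17 arrays. The submitters' processing notes name RMA, affy 1.26.1 and MAS5, with no roles, and the build is not given in the sources used here. Levels were used as deposited. Of 10928 probe sets, 5498 matched a S. cerevisiae gene by gene ID; 7244 carry 1 symbol, 1 carries several and the others none, and 12 symbols were updated. Where a gene had more than 1 probe set (47 genes), a single one was used (plain before shared types, then the highest mean). Groups came from the titles of the samples. Limma 3.58.1 in R 4.3.3 fitted 1 mean per group to all 17 arrays (11 residual degrees of freedom), with eBayes without trend and Benjamini-Hochberg adjustment over 5449 genes; the call was an adjusted p under 0.05, two-sided. The fit was tested on simulated data.

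The members, lists, tests and named genes were chosen with earlier results of these data known. COS12 is named throughout, with any member at an unadjusted p under 0.05 or with the largest difference; members whose groups did not overlap are named too, after their values were seen, and list genes only if called, with exceptions stated. Neighbours and genes of the chromosome ends were added after the data were seen. Replicate numbers were checked for pairing and treated as names only. Sequences were not used here.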

Additional observations from a re-analysis of the deposited data

How the results depend on the processing

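The counts of COS members called (0 in all 10 tested comparisons) and the medians of the members were recomputed under 9 alternatives and without each array in turn. The count became 1 (COS12) with array weights for WT microgravity against ground and for FLO1 ground against WT ground, and 1 without the 4 arrays that stand apart for WT microgravity against ground, where 461 of 5449 genes were called. Without single arrays it ran from 0 to 1 for FLO1 against WT in flight (401 genes called without FLO1 microgravity replicate 2, in place of 2), where the median of the members ran from 0.24 to 0.52. The median turned to −0.02 for FLO8 ground against WT ground without FLO8 ground replicate 3, and to −0.0026 for FLO8 microgravity against ground without the 4 arrays. It also took both signs for the FLO8 strain against the FLO1 strain, from −0.08 to 0.12 on the ground, from −0.03 to 0.14 in flight and from −0.08 to 0.23 for the flight response, over the alternatives and single arrays left out. The cause was not tested. The difference of COS12 changed sign in 5 cases, none of them past the threshold. For FLO8 microgravity against ground it was 0.0155 without FLO8 microgravity replicate 2, and single arrays left out gave −0.45 to 0.0155. For the flight response of the FLO1 strain against that of WT it was 0.0033 with array weights, 0.10 without WT ground replicate 3, 0.08 without WT microgravity replicate 1 and 0.19 without FLO1 microgravity replicate 2, in a range from −0.46 to 0.19 over single arrays. The replicate number as a block changed no call of a member: COS12 differed by −1.18 in WT microgravity against ground (limma adjusted p = 0.177), and 0 members passed. Deviations of same-numbered flight and ground arrays correlated at r from −0.38 to 0.35, so pairing by number was not shown. Deviations within groups of 2 or 3 arrays depend on each other, and this check cannot exclude pairing. Of 1930 counts for the gene lists 61 moved, 30 of them with array weights and 25 without a single array, to at most 4 genes.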
